A study of Mus musculus with 34 samples.

Results

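Livers in which a c-Myc transgene had been switched off for 12 weeks were compared with livers in which it had been off for 4 weeks, with 3 livers at each time out of 34 samples in all. The 6 samples were chosen by their titles, and no measured value entered the choice. The 12-week livers carried the c-Myc transgene and their mice had received doxycycline, which turns the transgene off, for 12 weeks. The 4-week livers carried the same transgene and their mice had received doxycycline for 4 weeks. The same interval was sampled in livers that carried both TGFα and c-Myc and were off both, with 3 livers after 12 weeks and 3 after 4 weeks on doxycycline. The 3 control livers were normal livers without a transgene and without doxycycline. The promoter that drove the transgene, the strain of the transgenic mice, their ages and their sexes are not stated in the labels. The study as a whole held 10 groups of mouse liver and liver tumors, with c-Myc, TGFα or both as transgenes, and among them 7 end-stage c-Myc tumors. RNA of each liver was labelled with Cy3 and hybridised to an Agilent 2-color array against a Cy5-labelled liver pool of C57BL/6 mice of both sexes, and the labels call the samples biological replicates. Values below are log2 of liver over this pool, and a difference is the 12-week mean minus the 4-week mean on that scale.

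c-Myc is a transcription factor that drives growth, ribosome production and metabolism, and liver tumors that depend on it regress when it is withdrawn. Hepatic stellate cells are the vitamin A storing pericytes of the liver; upon injury they become myofibroblasts that deposit fibrillar collagen, and they lose this activity when the injury ends. Immediate early genes are transcription factors and signal regulators that are induced within minutes by growth factors, by stress and also by handling of tissue, and the liver's lipid genes follow feeding, hormones, sex and time of day through regulators such as SREBP, PPARα and the growth hormone axis.

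The 250 bases before the start of 4 genes are shown because each gene stands for one of the groups described here: a stellate cell collagen, a second fibrillar collagen, an immediate early gene and a cholesterol synthesis gene. They are RefSeq promoter sequences of build GRCm38.p6, all on the plus strand, and run from 5′ to 3′. Capitals mark a TATAAA match in Col3a1 (chr1:45311288-45311537) and Fos (chr12:85473640-85473889), and a CCAAT match, on either strand, in Col1a2 (chr6:4505368-4505617) and Nsdhl (chrX:72918271-72918520).
Col3a1: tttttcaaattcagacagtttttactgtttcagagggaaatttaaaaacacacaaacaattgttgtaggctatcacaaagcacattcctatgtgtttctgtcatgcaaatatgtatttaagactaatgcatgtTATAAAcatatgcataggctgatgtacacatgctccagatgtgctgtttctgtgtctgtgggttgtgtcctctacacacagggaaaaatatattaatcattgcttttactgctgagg
Col1a2: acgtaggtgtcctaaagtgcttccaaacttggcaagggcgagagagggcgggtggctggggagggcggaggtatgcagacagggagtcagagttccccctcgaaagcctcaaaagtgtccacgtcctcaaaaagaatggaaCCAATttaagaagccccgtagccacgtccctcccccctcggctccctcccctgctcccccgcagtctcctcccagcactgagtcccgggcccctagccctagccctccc
Fos: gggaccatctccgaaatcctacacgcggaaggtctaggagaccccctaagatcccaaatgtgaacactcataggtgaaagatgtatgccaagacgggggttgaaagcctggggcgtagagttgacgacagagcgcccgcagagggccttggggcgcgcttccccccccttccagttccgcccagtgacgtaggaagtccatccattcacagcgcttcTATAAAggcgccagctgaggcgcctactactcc
Nsdhl: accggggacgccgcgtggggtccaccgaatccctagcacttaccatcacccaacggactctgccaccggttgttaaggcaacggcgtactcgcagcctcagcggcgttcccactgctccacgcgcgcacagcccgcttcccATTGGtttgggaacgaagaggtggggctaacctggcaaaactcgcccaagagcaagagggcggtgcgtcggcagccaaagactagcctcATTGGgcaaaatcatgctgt

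Motifs were searched on both strands in these 250-base windows. CCAAT, the core of the NF-Y box, was held by 16 of the 19 cholesterol synthesis promoters that matched the table (84.2%), by 3 of the 19 fibrillar matrix promoters (15.8%) and by 33.8% of all 32851 promoters. CACGTG, the E-box that c-Myc and its partners can bind, was held by 7 of the 29 immediate early promoters (24.1%) and by 6.02% of all promoters. TATAAA was held by 6 of the 29 immediate early promoters (20.7%) and by 12.4% of all promoters. A match describes these letters alone.

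Myc itself was read at 3 probes. At Myc probe A_52_P108346 the 12-week livers stood at -0.01, 0.73 and -0.21, the 4-week livers at 0.26, 0.10 and 0.57, and the controls averaged -0.26. The 7 c-Myc tumors averaged 4.68 at this probe. The times overlapped (difference -0.14, SE 0.94), and both stood nearer the controls than the tumor mean. The SE comes from the spread pooled over all groups, and the tumors ran from 1.71 to 6.25 at this probe. At Myc probe A_52_P278549 the times overlapped as well (difference -0.37, SE 0.78), with a tumor mean of 3.27 and a control mean of 0.28. Myc probe A_51_P102096 did not mark the tumors, whose mean there was -0.47, below the control mean of -0.21. At that probe the 12-week livers stood at -0.29, 0.91 and 0.21 and the 4-week livers at 0.54, 0.35 and 0.83, with overlap (-0.30, SE 0.45), and every 4-week liver was above the highest control (0.13). The 10 hepatocyte markers, among them Alb and Apoa1, were well above background in all 6 livers.

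The arrays of the 2 times were unlike in ways that the labels do not explain. In Cy3, probes well above background made up 48.1, 62.5 and 47.1% of the 12-week arrays and 68.4, 66.1 and 71.4% of the 4-week arrays. In Cy5, the channel of the reference pool, the shares were 47.8, 54.5 and 50.9% against 69.5, 62.1 and 69.1%, so this share was lower at 12 weeks too. The median Cy5 signal above local background was 12.1, 22.2 and 26.9 at 12 weeks, against 47.7, 59.6 and 61.2 at 4 weeks. The median Cy3 signal was not lower, at 41.6, 35.6 and 34.2 against 23.2, 26.6 and 45.3, so the balance of the dyes differed between the times. All 4-week arrays were scanned on day 1 of the series, while the 12-week arrays were scanned on days 6, 7 and 6, so no scan day and no slide held both times. Across genes, the mean correlation of an array with the others of its group was 0.612, 0.637 and 0.479 for the 12-week arrays and 0.809, 0.80 and 0.801 for the 4-week arrays, and genes are not independent replicates. The Y-linked gene Eif2s3y stood at -3.74, -5.21 and 0.75 in the 12-week livers and at 0.57, -1.72 and 0.54 in the 4-week livers, and Xist at 0.59, 1.02 and -3.97 against -5.02, 1.62 and -5.13. Replicates 1 and 2 at 12 weeks and replicate 2 at 4 weeks thus read as female, and the other 3 livers as male. The controls were scanned on days 7, 1 and 8, with Xist at 1.58, -5.07 and -4.32, so replicate 1 read as female and replicates 2 and 3 as male. Comparisons with the controls are thus not matched for scan day or sex either.

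Few single genes passed the test between the times. Of 22271 genes tested, 14 (0.0629%) had a limma adjusted p under 0.05, 3 of them higher and 11 (0.0494%) lower at 12 weeks, while 2179 (9.78%) had an unadjusted p under 0.05. Among the falls was Cavin1, the caveolar coat protein of endothelial, fat and mesenchymal cells. Cavin1 stood at -0.49, -0.05 and -0.34 in the 12-week livers and at 1.13, 1.59 and 1.88 in the 4-week livers, with a control mean of 0.43. Every 12-week liver lay below every 4-week liver (difference -1.83, SE 0.36, limma adjusted p = 0.0472), and 3 of its 4 kept probes gave a lower value. Shtn1, a cytoskeletal regulator of axon growth, stood at -0.95, -0.64 and -0.58 in the 12-week livers, against 0.63, 0.36 and 0.44 in the 4-week livers. Its groups were also apart (-1.20, SE 0.20, limma adjusted p = 0.0227), although its second probe differed by -0.23.

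The small GTPase Rab8a, which directs vesicles to the cell surface, fell by 0.96 (limma adjusted p = 0.0389), and Cdk9, the kinase that releases paused RNA polymerase II, fell by 1.0 (limma adjusted p = 0.0472). The Cdk9 difference was -0.28 in the Cy3 channel alone. Clcf1, a cytokine of the interleukin 6 family (-0.56), the keratin Krt6a (-0.74) and Lrrc72 (-0.79) fell as well, as did 1700028P14Rik (-0.99), 1700012A03Rik (-0.82) and the probe A_52_P587462 (-0.77), and each of these 6 was well above background in 1 of the 3 livers at 12 weeks. The remaining fall was that of LOC100039851 (-1.16). The rises were TC1707173 (0.98), LOC631287 (0.89) and NAP058254-1 (0.88), transcripts with no assigned name, and the TC1707173 difference vanished in the Cy3 channel alone (-0.00). Of the 14 genes, 8 were well above background in all 6 livers. The count of 14 became 49 without 12-week replicate 3, 9 without 4-week replicate 3, 1 without 12-week replicate 1, 4-week replicate 1 or 4-week replicate 2, and 0 without 12-week replicate 2 (1420 genes at an unadjusted p under 0.05). It was also 0 with slides as a random block (1528 at an unadjusted p under 0.05), and 3 with scan day as a block. Since no scan day held both times, that fit takes the day effects from arrays of other groups, and under it Cavin1 differed by -0.56 and Shtn1 by -0.25.

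Genes just outside the threshold included Bmp4, a secreted ligand of the BMP family, at 0.10, 0.06 and 0.11 in the 12-week livers and 0.67, 1.35 and 0.91 in the 4-week livers (difference -0.88, SE 0.18, with a limma adjusted p just above the threshold). Rnd3, an atypical small GTPase that loosens the actin skeleton, stood at -1.29, -1.24 and -0.53 at 12 weeks, against 1.03, 0.76 and 0.52 at 4 weeks. Its groups did not overlap (-1.79, limma adjusted p = 0.0762). The chromatin remodeller gene Ino80 showed the same separation (-1.0), whereas the nucleotide hydrolase gene Nudt16 (0.96) stood higher in every 12-week liver.

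The 10 lists described below hold 300 genes, of which 294 were tested. None passed the adjusted threshold, so they are described by their values, by unadjusted limma p under 0.05 and by whether the times overlap. Over all genes, 1213 (5.45%) were lower and 966 (4.34%) higher at 12 weeks with an unadjusted p under 0.05. Of 22173 genes with a value in all 6 livers, 2764 (12.5%) lay lower in every 12-week liver than in every 4-week liver, and 2493 (11.2%) lay higher. The median difference over all genes was -0.00, with 11277 of 22271 genes negative and 10994 positive. In whole liver, fewer cells of a type and less RNA per cell cannot be told apart.

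**Figure D1:**
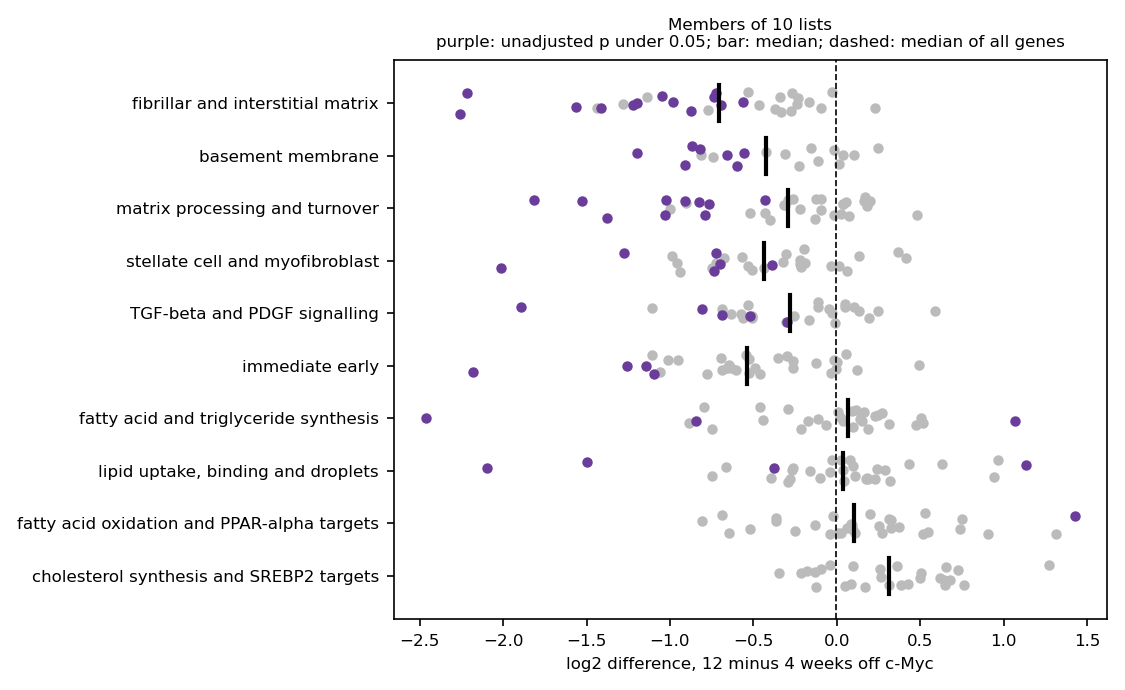
Differences between 12 and 4 weeks off c-Myc (x axis, log2) for each tested member of the 10 lists (rows), with purple points for an unadjusted p under 0.05, black bars for list medians and a dashed line for the median of all genes. The fibrillar matrix list lies almost wholly to the left of 0, with a median of -0.71, while the medians of the lipid lists lie between 0.04 and 0.31.

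Fibrillar and interstitial matrix genes were lower at 12 weeks as a group. Of 30 measured members, 29 had a negative difference, 13 had an unadjusted limma p under 0.05 in the lower direction and 0 in the higher one, and 16 were lower without overlap. The median difference was -0.71. With each array centred on its median in place of loess these counts were 2 and 5 (median -0.44), and with normexp fitted on all spots 3 and 10 (median -0.31). Set against the controls, the list's median was 0.02 at 12 weeks and 0.67 at 4 weeks, so by this median the 4-week livers stood above normal liver. Members differed, and at the Sparc probe used here every 12-week liver lay below the lowest control (0.54), which did not hold at its second probe.

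Col3a1, the type III collagen that stellate cells lay down early in scar, stood at -1.38, 0.77 and -1.14 in the 12-week livers and at 0.97, 2.11 and 1.82 in the 4-week livers, with a control mean of -0.45. The groups did not overlap, although 12-week replicate 2 came close to the lowest 4-week liver (difference -2.22, SE 0.63, limma adjusted p = 0.185). A second kept Col3a1 probe, A_52_P684242, differed by -0.25. Col1a1, the α1 chain of type I collagen, stood at -1.86, 0.98 and -1.61 at 12 weeks, against 0.44, 2.15 and 1.70 at 4 weeks. Here 12-week replicate 2 lay above 4-week replicate 1, so the times overlapped (-2.26, SE 0.87, limma adjusted p = 0.357). Its partner chain Col1a2 overlapped in the same way (-1.28, SE 0.74). Other Col1a1 probes differed by less: A_51_P377094 by -0.83 and A_52_P658611 by -0.15.

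Sparc, a collagen-binding matricellular protein, was tight within each time, at -0.23, -0.49 and -0.35 in the 12-week livers and 0.77, 1.18 and 1.22 in the 4-week livers. The groups were well apart (-1.41, SE 0.41, limma adjusted p = 0.189). The controls averaged 0.73 and ran from 0.54 to 0.88. Every 12-week liver lay below the lowest control, while 4-week replicate 1 lay within the control range and replicates 2 and 3 above it. The large proteoglycan gene Vcan stood at -0.04, 0.24 and 0.15 in the 12-week livers, against 1.07, 1.24 and 1.64 in the 4-week livers (-1.20, limma adjusted p = 0.132), and was well above background in 1 of the 3 livers at 12 weeks. Fmod, which organises collagen fibrils, stood at -0.30, -0.11 and -0.02 against 0.19, 0.92 and 0.65 (-0.72). Emilin1, an elastic fibre glycoprotein, differed by -0.87 and Mfap2, a microfibril component, by -0.69, both without overlap, and Fmod was well above background in 2 and Mfap2 in 1 of the 3 livers at 12 weeks. Chosen after their values were seen, the collagen genes Col5a1 (-1.22) and Col6a1 (-0.98, well above background in 2 of the 3 livers at 12 weeks) and the small proteoglycan gene Lum (-1.44) also lay lower in every 12-week liver. Fn1, fibronectin, which hepatocytes also secrete, was the member with a positive difference, at 0.71, -0.62 and -1.41 in the 12-week livers and -0.92, -0.58 and -0.49 in the 4-week livers (0.23, SE 0.59).

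**Figure D2:**
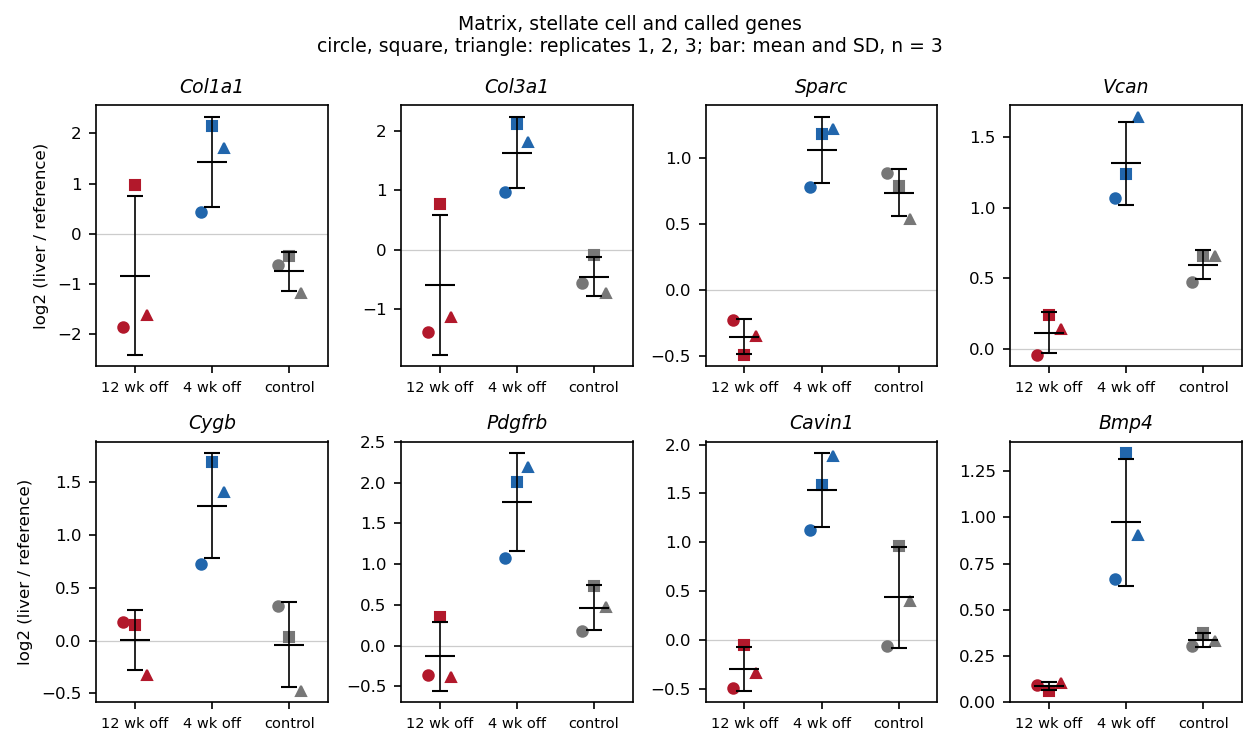
Log2 of liver over reference (y axis) for 8 genes in the 3 livers off c-Myc for 12 weeks (red), the 3 off for 4 weeks (blue) and the 3 controls (gray), with black bars for the mean and SD. Replicate 2 at 12 weeks (red square) sits above the other 12-week livers for Col1a1 and Col3a1, whereas Sparc, Cavin1 and Bmp4 separate the times with a narrow spread at 12 weeks.

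The fibrillar list was not even across livers. Its median, taken after subtracting each gene's mean over the 6 livers, was -0.41, -0.07 and -0.54 in the 12-week livers and 0.03, 0.55 and 0.59 in the 4-week livers. Replicate 2 at 12 weeks and replicate 1 at 4 weeks thus lay near each other in the middle. The 13 members with an unadjusted p under 0.05 became 8 without 12-week replicate 3, without 4-week replicate 2 or without 4-week replicate 3, and 1 with scan day as a block, where the median was -0.40 and Col3a1 differed by -0.39. The list's median was -1.44 by the log ratio that the scanner software wrote, which used another background protocol for the 12-week than for the 4-week arrays, and -1.18 over the members well above background in all 6 livers.

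Basement membrane genes, which build the sheet under bile ducts and vessels, showed a smaller shift of the same sign. Of 19 measured members, 15 had a negative difference (median -0.43), 7 had an unadjusted limma p under 0.05, all lower, and 8 were lower without overlap against 1 higher. The laminin genes Lamb1 (-0.82), Lamb2 (-0.66) and Lamc1 (-0.91) were apart between the times. Lamc1 stood at -0.57, -0.56 and -0.88 in the 12-week livers and at 0.06, 0.45 and 0.20 in the 4-week livers. Nid1, nidogen, which links laminin to collagen IV, stood at -1.12, -1.21 and -2.39 against -0.80, -0.26 and -0.08 (-1.19, SE 0.47). Col4a1, the collagen IV α1 chain, differed by -0.87 (SE 0.41) without overlap. The count of 7 became 4 without 12-week replicate 1, 3 without 12-week replicate 3 or 4-week replicate 2, 2 without 4-week replicate 3 and 0 with scan day as a block.

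Among 35 measured genes of matrix processing and turnover, 25 had a negative and 10 a positive difference, and the median was -0.29. Without overlap, 10 were lower and 1 was higher at 12 weeks. The list's medians per liver overlapped, with 12-week replicate 2 and 4-week replicate 1 both at -0.05. An unadjusted limma p under 0.05 was found for 10 members, all lower at 12 weeks. That count was 5 without 4-week replicate 3 and 0 with scan day as a block. Serpinh1, the collagen chaperone HSP47, was looked up after the values were seen and stood at -0.92, 0.20 and -0.37 in the 12-week livers, against 0.95, 1.61 and 1.80 in the 4-week livers (-1.82, SE 0.73). The Serpinh1 controls ran from 0.43 to 0.67, above every 12-week liver and below every 4-week liver. Adamts2, which trims the amino end of procollagen, stood at -0.74, -0.07 and -1.05 against 0.51, 1.03 and 1.19 (-1.53, SE 0.55), and Pcolce, which enhances trimming of the carboxyl end, differed by -0.82. All 3 were lower in every 12-week liver, as were the crosslinking oxidase gene Loxl1 (-0.91), the proteoglycan-cleaving proteases Adamts1 (-1.03) and Adamts5 (-0.79), and Plau, urokinase (-0.76), which was well above background in 1 of the 3 livers at 12 weeks. Mmp2, gelatinase A, which was well above background in 1 of the 3 livers at 12 weeks, overlapped (-0.43), and so did Timp1, an inhibitor of metalloproteinases (-0.26, SE 0.49). Lox was near background throughout, being well above it in 0 of 3 livers at 12 weeks and 1 of 3 at 4 weeks.

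The stellate cell and myofibroblast list had a median of -0.44 over 29 measured members, of which 24 were negative, 6 had an unadjusted limma p under 0.05 (all lower) and 9 were lower without overlap. Cygb, cytoglobin, a globin of stellate cells, stood at 0.18, 0.15 and -0.33 in the 12-week livers and at 0.73, 1.69 and 1.41 in the 4-week livers. The groups were apart (-1.28, SE 0.31, limma adjusted p = 0.124), and the 12-week livers lay around the control mean of -0.04. Mgp, an inhibitor of calcification made by activated mesenchymal cells, stood at -0.36, 2.81 and 0.25 against 1.49, 3.46 and 3.78. Replicate 2 at 12 weeks was within the 4-week range, so the times overlapped despite a difference of -2.01 (SE 0.78). Nes, nestin (-0.74), and Adamtsl2, a secreted binder of the TGFβ carrier (-0.72), were apart.

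Markers of contraction and of quiescence in the same cells were not alike. Acta2, smooth muscle actin, the usual marker of myofibroblasts, stood at -0.57, -1.30 and -0.99 in the 12-week livers and at -0.69, -0.81 and -0.39 in the 4-week livers (-0.32, SE 0.34), with overlap. Des, desmin, differed by -0.19 and was well above background in 1 of the 3 livers at 12 weeks, and Lrat, which makes the retinyl esters that quiescent stellate cells store, by -0.72 (SE 0.49) without overlap. The control mean of Acta2 (-0.76) lay within the range of both times. The count of 6 became 4 without 12-week replicate 3 or 4-week replicate 2, 3 without 4-week replicate 3, 9 without 4-week replicate 1, and 1 with scan day as a block, where the median was -0.51 and the Mgp difference was 0.00. With each array centred on its median in place of loess the list's median was -0.01.

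The signalling list holds receptors, ligands and their carriers. Pdgfrb, the PDGF receptor through which stellate cells proliferate, stood at -0.37, 0.35 and -0.39 in the 12-week livers and at 1.08, 2.01 and 2.20 in the 4-week livers. Every 12-week liver was below the control mean of 0.46 and every 4-week liver above it (-1.89, SE 0.52, limma adjusted p = 0.171). The related receptor Pdgfra overlapped (-0.69, SE 0.34), and the ligand Pdgfb also overlapped (-0.69) and was well above background in 1 of 3 livers at 12 weeks. Of the TGFβ ligands, Tgfb1 differed by -0.17 (SE 0.18) with overlap and Tgfb2, well above background in 2 of the 3 livers at 12 weeks, by -0.52 (SE 0.24) without. Ltbp3, which holds latent TGFβ in the matrix, differed by -0.81, and the TGFβ target Ccn2, looked up after the values were seen, by -1.11 (SE 0.72). Over the 28 genes of TGFβ and PDGF signalling the median was -0.28, with 5 at an unadjusted limma p under 0.05, all lower. That count was 1 without 12-week replicate 1, 4-week replicate 2 or 4-week replicate 3, and 0 with scan day as a block.

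Markers of other liver cell types were read in the same way, and few had an unadjusted limma p under 0.05. That count was 0 for cholangiocyte, neutrophil, T and NK cell, erythroid and macrophage markers. It was 1 for endothelial and 2 for mesothelial markers, all lower at 12 weeks, and for hepatocyte markers 1 higher and 1 lower. All 9 cholangiocyte markers were lower at 12 weeks (median -0.49, 4 without overlap), among them Spp1, osteopontin, at -1.03, 0.05 and -0.17 against 0.15, 0.80 and 1.52. Of 12 endothelial markers 11 were lower (median -0.27), of 10 neutrophil markers 9 (median -0.33), and of 7 mesothelial markers all 7 (median -0.42). The mean log2 ratio over the members of each list ran from -0.10 to 0.16 at 12 weeks and from 0.37 to 0.91 at 4 weeks for cholangiocytes, from -0.82 to -0.50 and from -0.44 to -0.18 for endothelial cells, from 0.41 to 0.53 and from 0.70 to 1.36 for neutrophils, and from 0.42 to 0.99 and from 0.95 to 1.31 for mesothelial cells. Cxcr2, Ngp and Elane of the neutrophil list were not well above background in any 12-week liver. T and NK cell markers were lower in 10 of 11 cases (median -0.19) and erythroid markers in 6 of 6 (median -0.20). Of the 6 erythroid markers, 3 were not well above background in any 12-week liver, and 3 in no 4-week liver. Medians per liver overlapped for T and NK cells (0.04 at 12-week replicate 2, -0.14 at 4-week replicate 1) and mesothelial cells (0.14 and 0.03 in the same livers). The median differences were small for B and plasma cells (-0.07), muscle (-0.06), adipocytes (-0.03) and pancreatic acinar cells (0.05). Hepatocyte markers were mixed, with 7 of 10 higher (median 0.28) and differences from -1.29 to 1.14. Of these markers 3 were higher and 2 lower without overlap. The hepatocyte median per liver was 0.42, -0.00 and -0.28 at 12 weeks, against -0.03, -0.32 and 0.02 at 4 weeks, with overlap. Of 12 macrophage markers 7 were higher and 5 lower (median 0.24), and 2 did not overlap, the resident macrophage receptors Cd163 (1.18, SE 0.66) and Timd4 (0.66, SE 0.34), both higher. The macrophage median per liver was 0.69, 0.42 and -0.59 at 12 weeks, against -0.21, -0.03 and -0.03 in the 4-week livers, so 12-week replicate 3 was the lowest of all 6 livers. The part of these cells in the matrix differences was not tested.

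**Figure D3:**
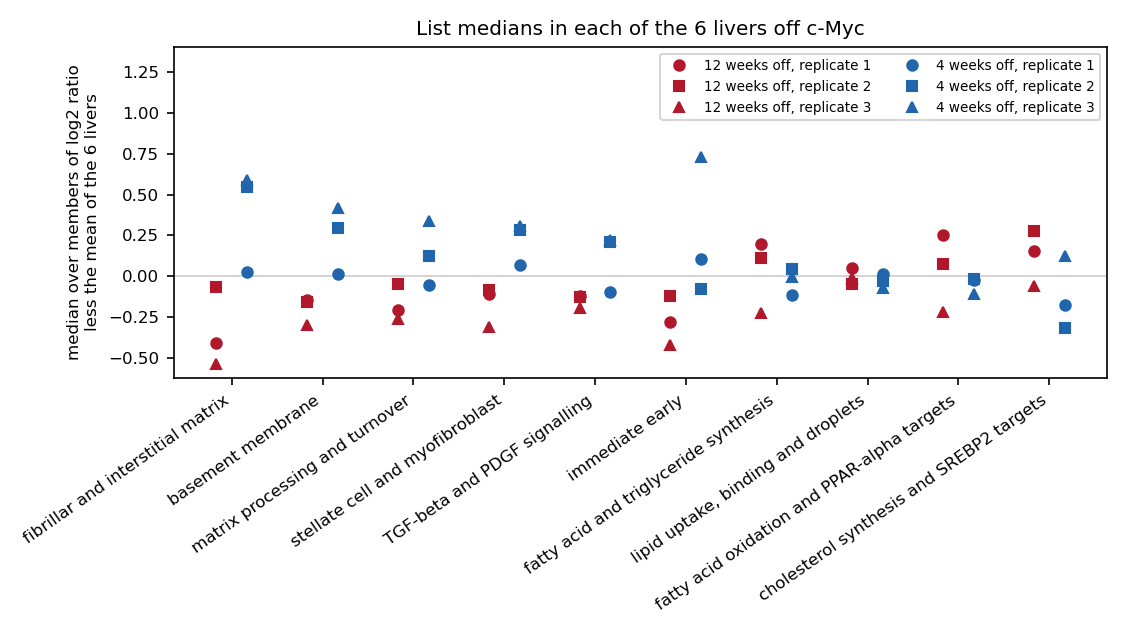
Median over the members of each of the 10 lists (x axis) of the log2 ratio less the gene's mean over the 6 livers (y axis), with 1 point per liver off c-Myc for 12 weeks (red) or 4 weeks (blue). Basement membrane, stellate cell, fibrillar, signalling and immediate early lists have all 12-week livers below all 4-week livers. The nearest livers of the 2 times are at -0.12 and -0.10 for signalling and at -0.12 and -0.07 for immediate early genes. In the immediate early list 4-week replicate 3 (blue triangle) stands alone at 0.73.

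Immediate early genes were lower at 12 weeks, with a median of -0.54 over 32 measured members. Of these, 28 had a negative difference, 4 an unadjusted limma p under 0.05 (all lower) and 6 did not overlap, all lower. Egr1, a zinc finger factor at the head of the growth factor response, stood at -0.82, -0.69 and -0.61 in the 12-week livers and at 2.40, 0.12 and 1.90 in the 4-week livers. The 12-week livers were close together, whereas 4-week replicate 2 lay well below the other 4-week livers (-2.18, SE 0.85, limma adjusted p = 0.369). Fos, the AP-1 subunit, stood at 0.10, 0.45 and -0.08 at 12 weeks, against 1.53, 0.07 and 2.63 at 4 weeks. The same replicate 2 fell within the 12-week range, so the times overlapped (-1.26, SE 0.60). Jun, its partner, overlapped too, at 0.14, 0.43 and 0.18 against 0.41, 0.89 and 2.48 (-1.01, SE 0.56).

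Ier5, a growth and heat shock response regulator, stood at -0.39, -0.52 and -0.55 in the 12-week livers and at 0.55, 0.27 and 1.01 in the 4-week livers, without overlap (-1.10, SE 0.50). Jund was apart as well (-1.15, SE 0.39), but differed by -0.29 in the Cy3 channel alone. The AP-1 subunit Fosl2 (-0.53), the zinc finger gene Klf6 (-0.69) and Ier2 (-0.78), the last looked up after the values were seen, were lower in every 12-week liver. The list's median per liver was -0.28, -0.12 and -0.42 at 12 weeks and 0.11, -0.07 and 0.73 at 4 weeks, so 4-week replicate 3 stood apart from the other 4-week livers. Without that liver the median was -0.27 and 1 member had an unadjusted p under 0.05, and without 12-week replicate 1, 12-week replicate 3 or 4-week replicate 1 the count was 2. With scan day as a block the median was -0.16, and with each array centred on its median in place of loess it was -0.03. Against the controls, the list's median was 0.16 at 12 weeks and 0.61 at 4 weeks.

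**Figure D4:**
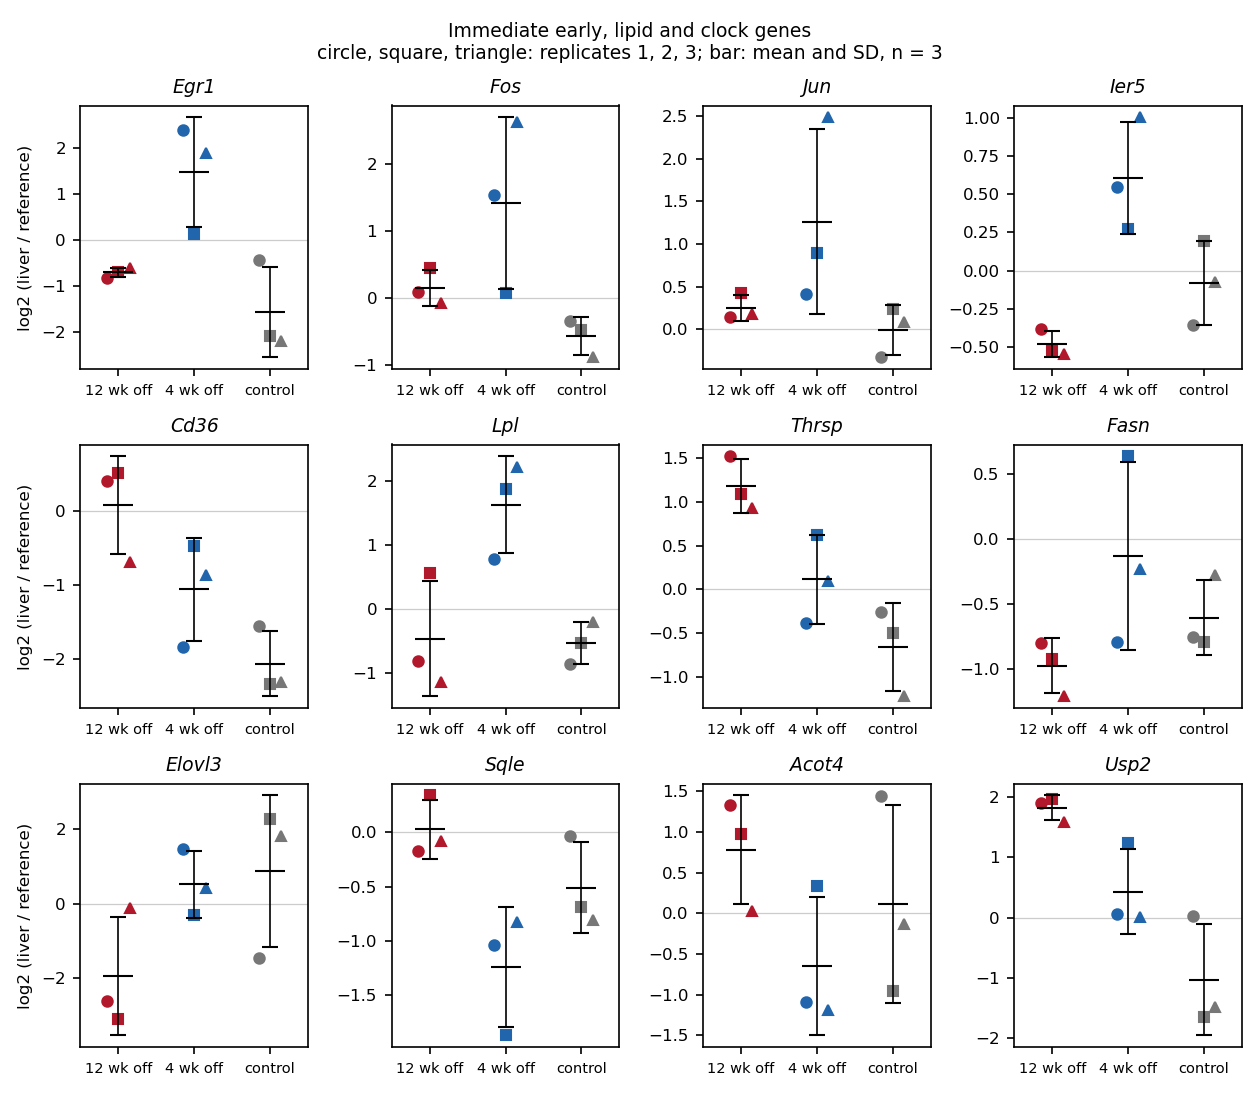
Log2 of liver over reference (y axis) for 12 immediate early, lipid and clock genes in the livers off c-Myc for 12 weeks (red), those off for 4 weeks (blue) and the controls (gray), 3 livers each, with black bars for the mean and SD. The 12-week livers form narrow clusters for Egr1, Ier5 and Usp2, whereas the 4-week livers spread widely for Egr1, Fos and Jun.

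The 4 lipid lists had small positive medians, and cholesterol synthesis had the highest. Over 30 genes of fatty acid and triglyceride synthesis the median was 0.07 and 18 had a positive difference, with 1 higher and 2 lower at an unadjusted limma p under 0.05. Thrsp, a lipogenic regulator induced by thyroid hormone and carbohydrate, stood at 1.52, 1.09 and 0.93 in the 12-week livers and at -0.38, 0.63 and 0.10 in the 4-week livers. All 12-week livers were above all 4-week livers, and both times averaged above the control mean of -0.66 (1.07, SE 0.42, limma adjusted p = 0.373). Fasn, fatty acid synthase, ran the other way, at -0.80, -0.92 and -1.21 against -0.80, 0.63 and -0.23 (-0.85, SE 0.40), with 1 liver of each time almost level, and differed by -0.31 in the Cy3 channel alone. Its upstream enzyme Acly was lower in every 12-week liver (-0.75, SE 0.45). Scd1, the stearoyl desaturase, and the regulator Srebf1 overlapped between the times (-0.89, SE 0.74, and 0.16, SE 0.48).

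Elovl3, a fatty acid elongase that is higher in male mouse liver, stood at -2.61, -3.09 and -0.12 in the 12-week livers and at 1.46, -0.32 and 0.42 in the 4-week livers (-2.46, SE 1.19). Its lowest values lay in 12-week replicates 1 and 2, which read as female by Xist. Acot4, a peroxisomal acyl-CoA thioesterase, stood at 1.33, 0.97 and 0.03 against -1.09, 0.34 and -1.19 (1.43, SE 0.54), and within each time the livers that read as female were the higher ones. The female-biased genes Prom1 (1.35, well above background in 2 of 3 livers at each time) and Cyp17a1 (1.22) and the male-biased Cyp4a12a (-2.87) followed the same split of livers, with Cyp4a12a at -4.53, -4.78 and 1.5 against 0.91, -1.26 and 1.14. The 15 female-biased genes had a median difference of 1.35, and the 13 male-biased genes one of -0.70. With a score of Y-linked genes less Xist as a covariate Elovl3 differed by -1.60, and with scan day as a block the directions of Elovl3 (0.10), Acot4 (-0.78) and Cyp4a12a (0.31) turned.

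Lipid uptake and droplet genes had a median of 0.04 over 32 members, 18 of them positive, with 1 higher and 3 lower at an unadjusted limma p under 0.05. Cd36, the fatty acid transporter, stood at 0.40, 0.51 and -0.69 in the 12-week livers and at -1.84, -0.48 and -0.86 in the 4-week livers, with a control mean of -2.07. Replicate 3 at 12 weeks lay within the 4-week range (1.13, SE 0.48, limma adjusted p = 0.416), and a second probe, A_51_P375146, differed by 0.49. Lpl, lipoprotein lipase, which is low in healthy adult hepatocytes, stood at -0.81, 0.55 and -1.14 against 0.78, 1.88 and 2.22, without overlap (-2.10, SE 0.82, limma adjusted p = 0.373; -0.75 with scan day as a block). As for Col1a1, 12-week replicate 2 was the highest of its time. The fatty acid binder Fabp4, a gene of fat cells, endothelium and macrophages, differed by -1.5 (SE 0.61) with overlap. On lipid droplets, Plin3 (-0.75) and the triglyceride lipase gene Pnpla2 (-0.37) were lower without overlap, and Plin2 overlapped (0.18, SE 0.56).

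The list of fatty acid oxidation genes had a median of 0.10 over 32 members, of which 22 had a positive difference and 1, Acot4, an unadjusted limma p under 0.05. With scan day as a block the median was -0.53 and 29 members were negative, Ppara (-0.54) and Cpt1a (-0.33) among them, and with each array centred on its median in place of loess it was 0.93. Ppara, the nuclear receptor that governs the pathway, stood at 0.36, 0.90 and 0.94 in the 12-week livers and at 0.05, 0.27 and -0.38 in the 4-week livers (0.75, SE 0.37), but the difference in the Cy3 channel alone was -0.03. Cpt1a, the gate of mitochondrial oxidation, overlapped (0.55, SE 0.38). Acsl1 (-0.69), which activates fatty acids, and Pdk4 (-0.65), which spares pyruvate, were lower in every 12-week liver. The PPARα target Cyp4a14 was far below the reference in all 6 livers, between -5.49 and -4.47.

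Cholesterol synthesis was the lipid list with the highest median, 0.31 over 27 members, of which 20 had a positive difference. No member had an unadjusted limma p under 0.05, and 3 were higher without overlap. Sqle, squalene epoxidase, stood at -0.17, 0.34 and -0.08 in the 12-week livers and at -1.04, -1.87 and -0.82 in the 4-week livers (1.27, SE 0.70, limma adjusted p = 0.60). Nsdhl, a sterol demethylating enzyme, stood at 0.41, 0.51 and 0.52 against -0.10, -0.64 and 0.23 (0.65, SE 0.43), but differed by -0.15 in the Cy3 channel alone.

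Clock genes were read as well, since no label states the hour of sampling. Of 21 clock genes, 14 were higher and 7 lower at 12 weeks, 3 had an unadjusted limma p under 0.05, all higher at 12 weeks, and 5 were higher without overlap (median 0.21). Usp2, a deubiquitinase with a daily rhythm, stood at 1.90, 1.97 and 1.59 in the 12-week livers and at 0.05, 1.24 and 0.00 in the 4-week livers (1.39, SE 0.53), and the direction turned with scan day as a block (-0.13). Noct, a rhythmic phosphatase that acts on NADP cofactors and is tied to fat absorption, differed by 1.38 (SE 0.45) and the repressor Cry2 by 0.71, both with overlap. Per1, also a repressor, did not separate the times (-0.16, SE 0.24), although both stood above the control mean of -1.16.

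The same interval in livers off TGFα and c-Myc together was set beside these differences. Those 6 livers share no sample with the c-Myc livers. Their score of Y-linked genes less Xist was -4.23, -4.14 and 7.15 at 4 weeks and -2.25, 4.26 and 4.00 at 12 weeks. The apparent sexes thus shifted between the times in the opposite direction to the c-Myc livers. Female-biased genes had a median difference of -1.09 here, against 1.35 in c-Myc livers. Their 4-week arrays were scanned on days 5, 5 and 2 and their 12-week arrays on day 6. Their median difference between 12 and 4 weeks was 0.10 for fibrillar matrix, 0.26 for basement membrane, 0.11 for stellate cell, 0.07 for signalling and -0.08 for immediate early genes, and without 4-week replicate 3, whose mean correlation with its group was 0.131, it was 0.07, 0.20, 0.08, 0.10 and -0.21. Tested as a difference of changes, 34 genes (0.153%) passed a limma adjusted p under 0.05, and none was a member of the 10 lists. This count was 166 without c-Myc 12-week replicate 3 and between 1 and 7 without any other of the 6 c-Myc livers. Unadjusted, 10 fibrillar matrix members had a p under 0.05, all lower in c-Myc livers, set against 1254 of all genes in that direction (5.63%). Of 32 immediate early members, 1 had such a p, also lower in c-Myc livers. Sparc differed by -1.41 in c-Myc livers and 0.75 in livers off both, a difference of -2.17 (limma adjusted p = 0.106). For Pdgfrb the values were -1.89 and 0.78 (-2.68, limma adjusted p = 0.118), and for Cygb -1.28 and 0.55 (-1.83, limma adjusted p = 0.0831). Col3a1 differed by -2.22 and 0.09 (limma adjusted p of the difference = 0.275).

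**Figure D5:**
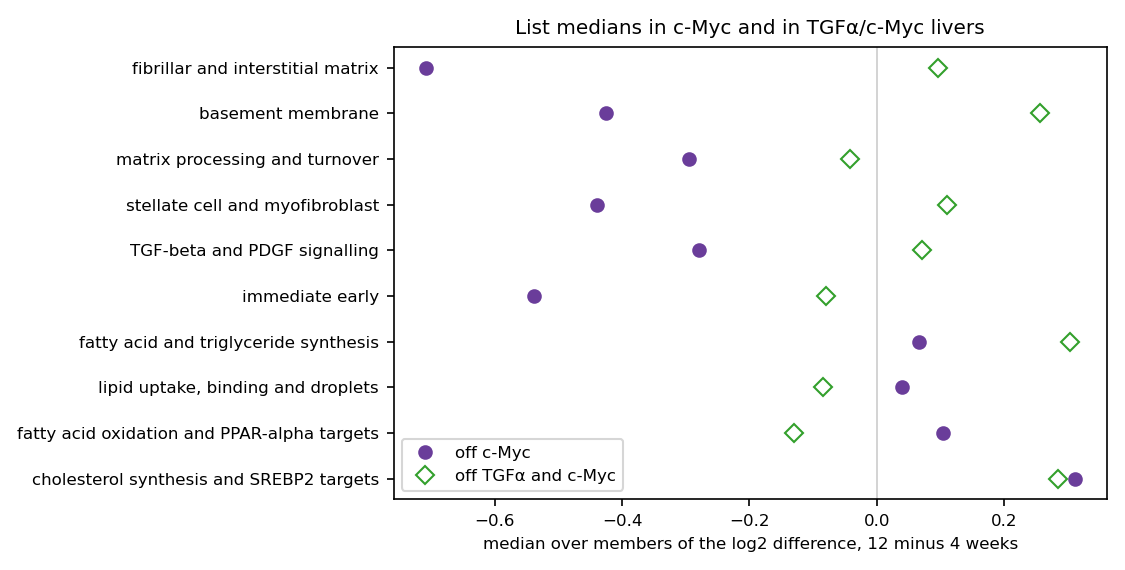
Median over list members of the log2 difference between 12 and 4 weeks (x axis) for each of the 10 lists (rows), in livers off c-Myc (filled circles) and in livers off TGFα and c-Myc (open diamonds). The 2 lines lie furthest apart for the fibrillar matrix, basement membrane and stellate cell lists, followed by the immediate early and signalling lists. For matrix processing (-0.29 and -0.04) the gap is like that for fatty acid synthesis (0.07 and 0.30) and oxidation (0.10 and -0.13). For cholesterol synthesis the medians are 0.31 and 0.28, the second being 0.08 without TGFα/c-Myc 4-week replicate 3.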

How the data were processed

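The members and lists were chosen with earlier results of these data known. Per the file headers, Agilent Feature Extraction gave each spot's mean and local background intensity and a log10 ratio of Cy5 over Cy3, and the deposited series matrix holds log2 ratios. Scale and direction of that matrix were read by setting it against the scanner values, and its background, dye and centring steps are stated nowhere in the files or labels. The submitters' processing notes name limma. Here the mean intensities of 34 arrays were background-corrected (limma 3.58.1 in R 4.3.3, normexp, offset 50) and loess-normalized within arrays, and log2 Cy3 over Cy5 was fitted with lmFit and eBayes, 1 coefficient per group, with Benjamini-Hochberg adjustment over 22271 genes and a threshold of 0.05. Spots with a local background over 2 times the array's median (82, 0 and 7 of 45018 spots on the 12-week arrays, 0, 6 and 12 on the 4-week arrays) were left out before normexp, a choice made after seeing that scratched spots shrank the ratios of some arrays. Kept were probes whose Cy3 signal was well above background on 3 or more arrays (32788 of 41174), and a gene took its kept probe of highest mean signal. P-values and SEs rest on the spread between the labelled biological replicates, pooled over the groups of all 34 arrays, tumors included. They are thus not the spread of the compared livers alone, and precision is limited by how many arrays there were. On simulated data of 21731 genes for this comparison, 59 of 100 genes changed by 1 on the log2 scale and 86 of 100 changed by 2 were recovered, with 4 false calls. The simulated noise was drawn independently for each gene and array from that pooled spread, with no slide, scan day or sex effect. In the data, arrays of the same slide had a consensus correlation of 0.47, so these counts do not cover errors from such effects. Named were the genes past the threshold, the 10 rises and 10 falls of smallest p without overlap that have a symbol, up to 6 members of each main list and up to 3 of each other list by p, list anchors, Myc, Tgfa and sex-linked genes, and genes of earlier results, and the text gives those that bear on the lists. Alternatives covered background, normalization, channels, filters, samples, blocks, weights and sex. Some genes that the naming rule selects are not reported here.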

Additional observations from a re-analysis of the deposited data

Results flagged for a closer look

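For 5 genes the change between 12 and 4 weeks in livers off c-Myc differed from the change in livers off TGFα and c-Myc, by a test of the difference itself. They are those of the 34 passing genes that had already been chosen for the text. That choice was made in part by p in the c-Myc contrast, which enters this test. Bmp4 differed by -0.88 in c-Myc livers and 0.49 in livers off both, a difference between the lines of -1.37 (limma adjusted p = 0.0274). Cavin1 differed by -1.83 and 0.57, a difference between the lines of -2.39 (limma adjusted p = 0.0493), and without TGFα/c-Myc 4-week replicate 3 the adjusted p was 0.0593. For Dr1, a repressor of transcription, the changes were 0.91 and -0.85, a difference of 1.77 (limma adjusted p = 0.0104). For Cisd2, an iron-sulfur protein of the endoplasmic reticulum and mitochondria, they were 0.74 and -0.56, a difference of 1.30 (limma adjusted p = 0.0369). For the unnamed transcript TC1707173 they were 0.98 and -0.39, a difference of 1.37 (limma adjusted p = 0.00827). Without TGFα/c-Myc 4-week replicate 3, the calls of Bmp4, Dr1, Cisd2 and TC1707173 held, at adjusted p of 0.0285, 0.00952, 0.0432 and 0.00952.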

How the results depend on the processing

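Between 12 and 4 weeks, 14 genes were called, and 34 for the difference from the TGFα/c-Myc change. These 2 counts were 7 and 3 with the scanner software's log ratio, 0 and 0 with median centring (4913 and 1650 at an unadjusted p under 0.05), 3 and 0 in Cy3 alone (1367 for the second), 65 and 77 with the series matrix (50 of the 65 higher, against 3 of 14), 9 and 22 with no filter, 3 and 21 with probes well above background in all 6 livers, 2343 and 3842 with array weights, 0 (4018 at p under 0.05) and 894 with only the groups compared, 23 and 98 without slide 5, 0 (1528 at p under 0.05) and 22 with each slide a random block, and 3 and 217 with scan day as a block. The first was 0 with only c-Myc and control livers (3823 at p under 0.05) and 28 with the sex covariate. Leaving out single livers gave 0 to 49 and 1 to 166. The replicate block gave 0 and 0 (3401 and 4386 at p under 0.05); same-numbered livers deviated together with correlations of -0.08, 0.18 and -0.21, so the numbers do not pair the livers. Of 2 alternatives chosen after seeing the data, leaving out slide 5 and TGFα/c-Myc 4-week replicate 3 gave 39 and 223, and normexp on all spots 1 and 52. Still called were TC1707173 in 17, Shtn1 in 15 and Cavin1 in 9 of 27 alternatives.

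With the scanner software's log ratio, list medians became -1.44 for fibrillar matrix, -0.72 for basement membrane, -0.49 for matrix processing, -0.73 for stellate cell, -0.56 for signalling and 0.11 for lipid uptake. With median centring, list medians became -0.44 for fibrillar matrix, -0.039 for basement membrane, -0.088 for matrix processing, -0.015 for stellate cell, 0.15 for signalling, -0.034 for immediate early, 0.79 for fatty acid synthesis, 0.47 for lipid uptake, 0.93 for fatty acid oxidation and 0.99 for cholesterol synthesis. With Cy3 alone, list medians became 0.11 for lipid uptake. With the series matrix, list medians became -1.48 for fibrillar matrix, -0.79 for basement membrane, -0.79 for stellate cell and -0.59 for signalling. With probes well above background in all 6 livers, list medians became -1.18 for fibrillar matrix and -0.66 for basement membrane. With scan day as a block, list medians became -0.40 for fibrillar matrix, -0.16 for immediate early, -0.17 for lipid uptake and -0.53 for fatty acid oxidation. With normexp on all spots, list medians became -0.31 for fibrillar matrix, -0.21 for basement membrane, -0.090 for matrix processing, -0.31 for stellate cell and -0.10 for signalling. With single livers left out, the medians ran from -0.86 to -0.58 for fibrillar matrix, from -0.57 to -0.28 for basement membrane, from -0.40 to -0.17 for matrix processing, from -0.46 to -0.36 for stellate cell, from -0.31 to -0.19 for signalling, from -0.70 to -0.27 for immediate early, from -0.086 to 0.18 for fatty acid synthesis, from -0.045 to 0.087 for lipid uptake, from 0.053 to 0.27 for fatty acid oxidation and from 0.22 to 0.42 for cholesterol synthesis. Median centring moved the median of all genes by 0.20, so its values are to be read against that shift.

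Single genes turned direction under some alternatives. Those were, with median centring Timp1 (0.40), Acta2 (0.37), Fasn (0.098), Scd1 (0.00088), Plin3 (0.071), Pnpla2 (0.47), Acsl1 (0.24), Per1 (0.50) and Myc (0.31). With Cy3 alone TC1707173 (-0.0027), Lox (0.041), Timp1 (0.23), Acta2 (0.22), Tgfb1 (0.023), Plin2 (-0.084), Ppara (-0.026) and Nsdhl (-0.15) turned. With the series matrix A_52_P587462 (0.11) and Krt6a (0.83) turned. With array weights Lox (0.015) turned. With slides as random blocks Lox (0.021) turned. With scan day as a block Fn1 (-0.059), Lox (0.16), Timp1 (0.29), Mmp2 (0.074), Mgp (0.0046), Acta2 (0.020), Jund (0.029), Scd1 (0.47), Srebf1 (-0.24), Elovl3 (0.10), Plin2 (-0.75), Acot4 (-0.78), Ppara (-0.54), Cpt1a (-0.33), Cyp4a14 (-2.59), Usp2 (-0.13), Per1 (0.24), Cyp4a12a (0.31), Myc (0.46) and Xist (-2.78) turned. With the sex covariate Srebf1 (-0.090) and Xist (-0.27) turned. With normexp on all spots Lox (0.059) and Myc (0.070) turned. With single livers left out, direction turned for Fn1 (-0.35 to 0.71), Lox (-0.094 to 0.060), Myc (-0.42 to 0.053), Per1 (-0.31 to 0.034), Plin2 (-0.054 to 0.30) and Srebf1 (-0.072 to 0.46).

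The cause of these changes was not tested. Signal over background limits the genes named as dim at 12 weeks.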
